A study of Mus musculus with 6 samples.

Results

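The nuclear receptors and PGC-1 coactivators of the regenerating liver were examined in Aqp5+/+ and Aqp5-/- mice. The group holds 38 listed genes, namely 36 receptors and the coactivators Ppargc1a and Ppargc1b, chosen by gene symbol from the count table. Of these, 37 were matched in the table of 16858 genes and 35 were among the 12353 genes that passed the filter on low counts. Ppargc1a was not analysed here, and Nr4a2 and Vdr did not pass the filter.

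Liver RNA was sequenced after ribosomal RNA removal at 72 h after 70% partial hepatectomy (PHx), with 3 libraries from wild type (Aqp5+/+) and 3 from Aqp5-/- mice. Both genotypes underwent PHx, and no library of an unoperated liver was used. The methods describe an Aqp5-/- line made with CRISPR/Cas9 in fertilized eggs, C57BL/6 mice raised beside it, and males of 3 months for PHx. Nothing in the sources used here ties each library to its own mouse. The p-values therefore measure only how far these libraries scatter, and that scatter may be technical.

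Nuclear receptors are transcription factors whose activity is set by small lipophilic ligands such as fatty acids, bile acids, oxysterols, retinoids, thyroid hormone and steroids. Many bind DNA as heterodimers with a retinoid X receptor, and coactivators of the PGC-1 family dock onto them to raise transcription of genes for oxidation and mitochondrial function. In the liver these receptors are known for the control of fatty acid oxidation, bile acid synthesis, drug metabolism, gluconeogenesis and the daily rhythm of metabolism.

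Several features of the libraries touch every result below. Library totals ran from 7130831 to 15550006 counts, and log2 values correlated between libraries with coefficients from 0.826 to 0.961. The defining hepatocyte markers were abundant in all 6 libraries, with summed levels from 65521 to 102468 CPM (counts scaled to a common library total, with TMM factors). Of 9 tested hepatocyte markers, 8 had a log2 fold change below 0, with a median of -0.31, 3 lay lower in Aqp5-/- without overlap and 0 had an unadjusted p under 0.05 (edgeR). Sinusoidal endothelial markers had a median of -0.55, with Stab2 and Kdr lower at an unadjusted p under 0.05. The hepatocyte markers had a median deviation of -0.61 in Aqp5-/- replicate 3, and the part of either marker list in the members' values was not tested. Aqp5-/- replicate 3 stood apart in markers of other cells. Its summed cholangiocyte markers reached 425 CPM against 51.4 to 192 CPM in the other 5 libraries, its stellate cell markers 2437 CPM against 501 to 691 CPM, and its neutrophil markers 95.5 CPM against 4.36 to 31.3 CPM. The median deviation over the stellate markers was smaller, at 0.54 there against -0.22 to 0.26 in the other 5 libraries. Of 8 tested stellate markers, 1 lay lower in Aqp5-/- without overlap. Macrophage markers summed to 276 to 429 CPM in Aqp5+/+ and 545 to 944 CPM in Aqp5-/- livers. Of 6 tested, 6 had a log2 fold change above 0 and 5 lay higher without overlap (6.93% of all genes). At an unadjusted p under 0.05 stood 5, all higher (edgeR, 4.30% of all genes). Lymphocyte markers were scarce, at 1.07 to 16.1 CPM summed, and lowest in Aqp5-/- replicate 3. Their median was -1.20 over 5 tested, with 0 at an unadjusted p under 0.05 (edgeR). Summed Y-linked transcripts lay between 287 and 471 CPM in Aqp5+/+ but only between 0.869 and 1.19 CPM in Aqp5-/- libraries, against the male sex given in the methods, and 8 of 14 male-biased and 12 of 18 female-biased liver genes were called by edgeR, lower and higher respectively. Genotype and sex-linked expression therefore cannot be told apart in any comparison here. In bulk liver RNA, fewer cells of a type and less RNA per cell cannot be told apart either.

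The promoters of 4 receptors whose levels did not overlap between the genotypes are shown, since receptors themselves bind short sites in such regions. Of the 6 members without overlap, these are the ones lower in Aqp5-/- livers other than Nr2c1, and where a gene had several starts, the starts of Nr5a2 and Rxrg were chosen after their matches were seen. The windows of Nr2c1, Esr1 and the other start of Rxrg held 0 matches to the half-sites described next and are not printed, and the other start of Nr5a2 held 1. Each run holds the 250 bases before a RefSeq transcription start on GRCm38.p6, written 5′ to 3′ on the gene's strand. Capitals mark a match on either strand to AGGTCA, the half-site of most nuclear receptors, or to AGAACA. The latter is the half-site of steroid receptors such as Nr3c1 and Nr3c2, but not of Esr1. The window of Nr1d1 lies at chr11:98775378-98775627 on the minus strand, Nr3c2 at chr8:76902080-76902329 on the plus strand, Nr5a2 at chr1:136960449-136960698 on the minus strand and the internal start of Rxrg at chr1:167618015-167618264 on the plus strand.
Nr1d1: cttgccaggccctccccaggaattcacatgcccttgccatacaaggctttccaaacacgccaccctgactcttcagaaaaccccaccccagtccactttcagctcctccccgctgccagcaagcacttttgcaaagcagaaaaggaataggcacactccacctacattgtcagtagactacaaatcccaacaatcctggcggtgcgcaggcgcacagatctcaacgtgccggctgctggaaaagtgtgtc
Nr3c2: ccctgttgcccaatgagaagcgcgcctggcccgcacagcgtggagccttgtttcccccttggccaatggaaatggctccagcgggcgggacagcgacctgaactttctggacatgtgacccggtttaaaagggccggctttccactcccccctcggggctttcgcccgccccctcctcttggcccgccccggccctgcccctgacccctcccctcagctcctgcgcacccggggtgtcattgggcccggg
Nr5a2: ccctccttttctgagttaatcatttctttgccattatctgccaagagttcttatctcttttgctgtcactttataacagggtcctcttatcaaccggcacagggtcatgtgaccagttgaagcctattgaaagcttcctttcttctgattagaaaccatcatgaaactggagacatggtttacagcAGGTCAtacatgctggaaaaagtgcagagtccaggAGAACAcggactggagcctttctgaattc
Rxrg: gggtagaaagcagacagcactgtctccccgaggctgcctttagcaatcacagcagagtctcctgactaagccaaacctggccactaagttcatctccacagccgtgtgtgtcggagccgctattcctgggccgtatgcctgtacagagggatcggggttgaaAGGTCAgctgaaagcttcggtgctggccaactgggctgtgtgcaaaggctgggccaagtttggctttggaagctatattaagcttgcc

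AGGTCA began at position -64 from the start in Nr5a2 and at -88 in Rxrg, and AGAACA began at -29 in Nr5a2. Neither motif was found in the windows of Nr1d1 and Nr3c2. Among 54 windows of 35 matched member genes, 10 held AGGTCA on either strand (18.5%), against 14.0% of all 32851 windows. AGAACA was present in 3 of the member windows (5.56%) and in 16.1% of all windows. The E-box CACGTG, which clock proteins bind and which reads the same on both strands, was present in 4 member windows, of Nr0b2, Nr1i3, Rara and Thrb (7.41%), and in 6.02% of all windows. These matches are a description of letters and not of binding.

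No member was called between the genotypes. The quasi-likelihood test of edgeR called, at a Benjamini-Hochberg adjusted p under 0.05 over all 12353 genes, 0 of 35 members and 41 genes in all (0.332%), while DESeq2 and limma also called 0 members (1.77% and 0.364% of all genes). Among the 41 genes were 3 Y-linked, 8 male-biased and 12 female-biased liver genes. At an unadjusted p under 0.05 stood 2 members, Nr1d1 and Nr3c2, both lower in Aqp5-/- livers, against 8.78% of all genes in either direction, 4.48% lower and 4.30% higher. The 3 libraries of each genotype did not overlap for 6 of 35 members, against 14.7% of all genes, a share close to the background. Of these, Rxrg, Nr1d1, Nr2c1, Nr3c2 and Nr5a2 lay lower in Aqp5-/- (7.80% of all genes) and Esr1 lay higher (6.93% of all genes). The log2 fold change, Aqp5-/- against Aqp5+/+, was below 0 in 25 of 35 members, against 49.0% of all genes, and its median was -0.23 over the members and 0.01 over all genes. Scaling by library totals alone moved the median of all genes to 0.17 and that of the members to -0.08, with 21 of 35 members below 0. Without Aqp5-/- replicate 3 the median of the members was -0.12, with 22 of 35 below 0 against 51.6% of all genes, and Esr1, Nr1d1 and Nr3c2 had an unadjusted p under 0.05 (5.81% of all genes).

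**Figure D1:**
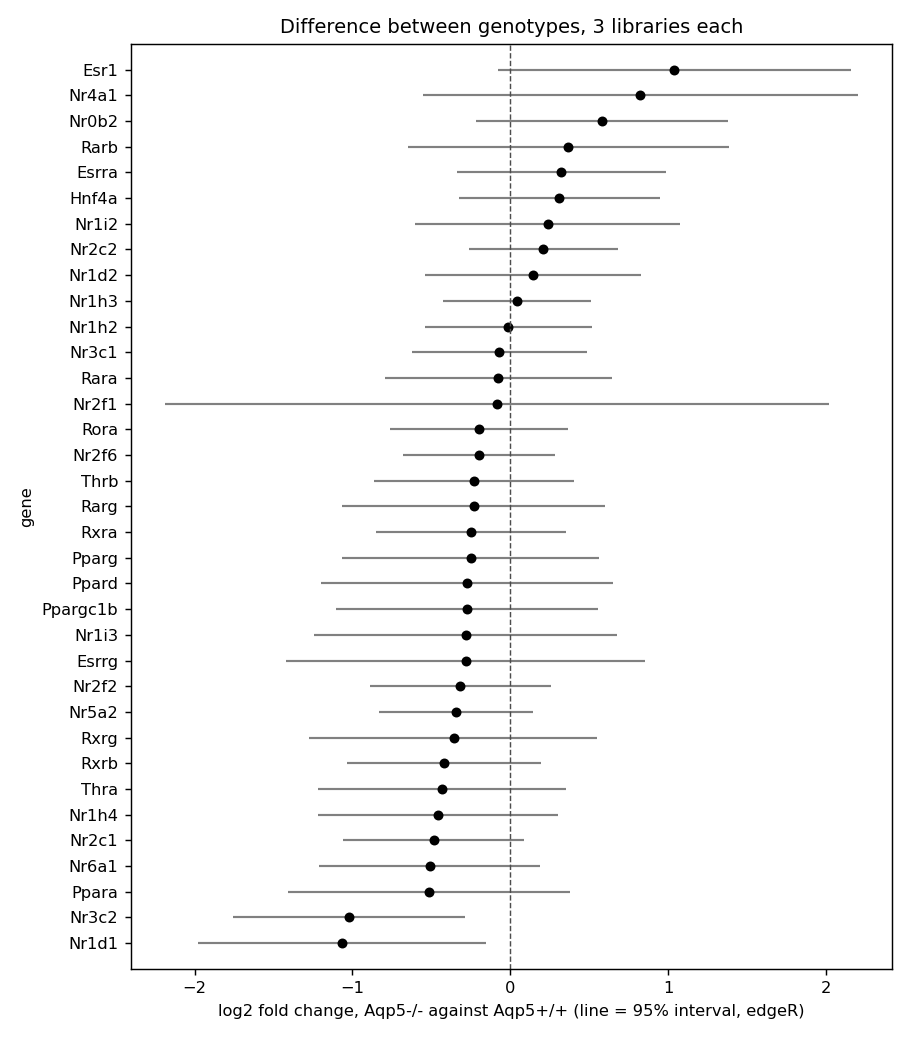
Log2 fold change of each of the 35 tested members, Aqp5-/- against Aqp5+/+, on the x axis, with genes on the y axis ordered by value; points are edgeR estimates and lines their 95% intervals, from 3 libraries per genotype. The intervals of Nr1d1 (-1.98 to -0.15) and Nr3c2 (-1.76 to -0.29) lie below 0 and those of the other 33 members span 0.

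Levels were compared between genes after division by exon length, as CPM per kilobase of exon. In Aqp5+/+ livers the highest level belonged to the bile acid receptor Nr1h4 (FXR), at 132.9 ± 12.6 CPM per kilobase (SD, n = 3). The xenobiotic receptor Nr1i3 (CAR) had 130.1 ± 46.4, the hepatocyte regulator Hnf4a 119.6 ± 22.7, the fatty acid receptor Ppara 97.4 ± 16.6 and the heterodimer partner Rxra 76.1 ± 11.9 CPM per kilobase (SD, n = 3). Each of these levels overlapped that of its neighbour in the order, so neighbouring ranks within the leading 5 were not resolved. Between genes further apart, the highest Rxra library (86.6 CPM per kilobase) lay below the lowest of Nr1h4 (118.4), Nr1i3 (103.2) and Hnf4a (103.8). The highest Ppara library (108.6 CPM per kilobase) lay below the lowest of Nr1h4. The same 5 receptors led in Aqp5-/- livers, where Hnf4a stood first at 148.3 ± 21.4 and Ppara at rank 4 with 68.2 ± 31.6 CPM per kilobase (SD, n = 3). Down the whole Aqp5+/+ order, Nr1h3 at 30.3 and Nr5a2 at 23.7 CPM per kilobase were neighbours whose 3 libraries did not overlap, and all other neighbouring pairs of tested members overlapped. At the low end, Nr4a1 had 0.66 and Nr2f1 0.25 CPM per kilobase. Between the genotypes the largest shifts in rank were those of Esr1 (from 23 in Aqp5+/+ to 14 in Aqp5-/-), Nr3c2 (13 to 19) and Nr1d1 (7 to 11).

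**Figure D2:**
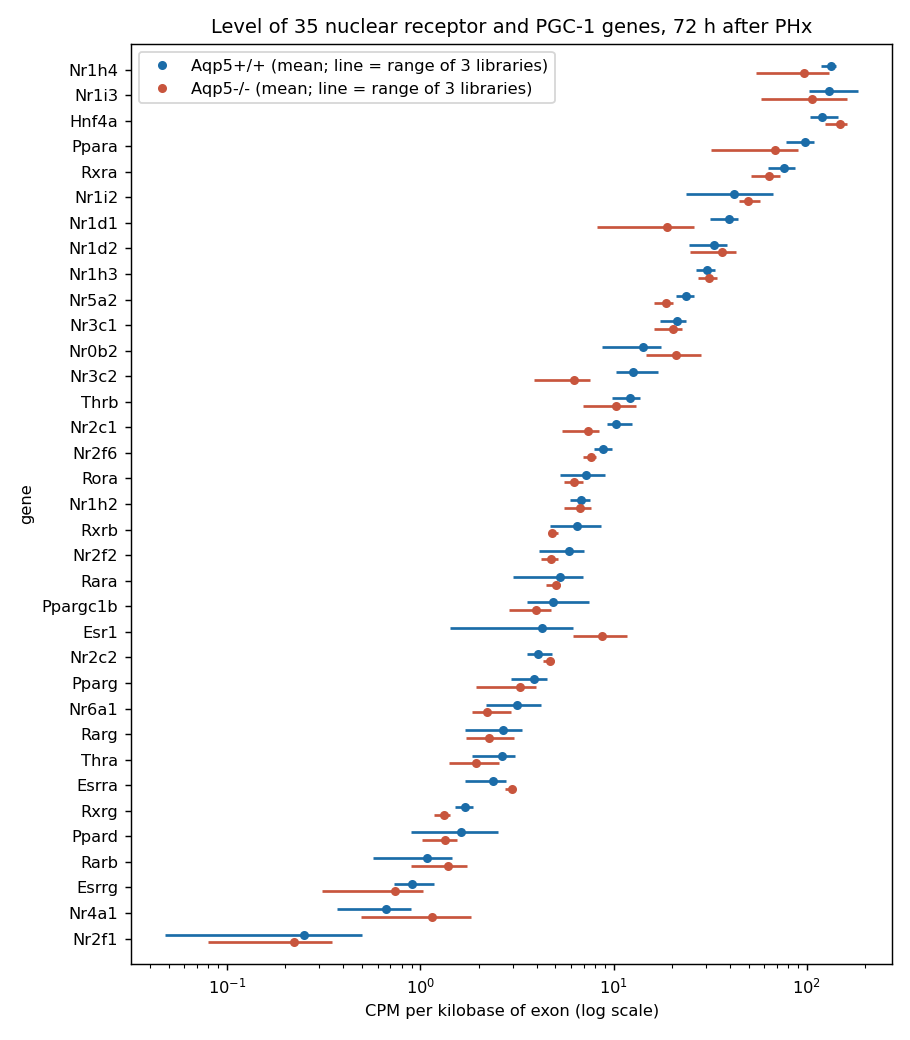
Level of the 35 tested members in CPM per kilobase of exon (x axis, log scale), with genes on the y axis ordered by the Aqp5+/+ mean; points are means of 3 libraries and lines run from the lowest to the highest library, Aqp5+/+ in blue and Aqp5-/- in red. Nr1h4, Nr1i3, Hnf4a, Ppara and Rxra lead in both genotypes. The lines of Rxrg, Nr1d1, Nr2c1, Nr3c2, Nr5a2 and Esr1 do not overlap, those of Esr1 by a narrow gap (6.14 against 6.16).

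Ppara encodes the receptor for fatty acids that drives hepatic fatty acid oxidation. It measured 300.4, 417 and 404 CPM in Aqp5+/+ replicates 1 to 3 and 346, 316 and 123 CPM in Aqp5-/- replicates 1 to 3. Aqp5-/- replicates 1 and 2 lay within the Aqp5+/+ range and replicate 3 was far below all other libraries. For Ppara the log2 fold change was -0.51 ± 0.39 (SE), with a 95% interval of -1.41 to 0.38 and an adjusted p of 0.712 (edgeR). Without Aqp5-/- replicate 3 it was -0.17. The paper, by contrast, reports PPARalpha as lower in Aqp5-/- livers at 72 h after PHx. It measured the RNA by quantitative PCR and the protein by Western blot.

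Ppard, the broadly expressed PPAR, measured 11.1, 18.9 and 6.76 CPM in Aqp5+/+ and 11.04, 11.6 and 7.62 CPM in Aqp5-/- livers. Pparg, the adipogenic PPAR, measured 12.3, 8.71 and 13.3 CPM in Aqp5+/+ and 11.4, 5.74 and 11.7 CPM in Aqp5-/- livers. Both genes overlapped between the genotypes, with log2 fold changes of -0.27 ± 0.40 for Ppard and -0.25 ± 0.36 for Pparg (SE) and adjusted p-values of 0.841 and 0.835 (edgeR). Their sign turned when a single library was left out, Aqp5+/+ replicate 2 for Ppard (0.17) and Aqp5-/- replicate 2 for Pparg (0.0040). Ppargc1b (PGC-1beta), a coactivator of mitochondrial and lipogenic genes, measured 14.2, 29.7 and 14.2 CPM in Aqp5+/+ and 17.3, 18.9 and 11.5 CPM in Aqp5-/- livers. Aqp5+/+ replicate 2 was the highest library and the other 5 ran from 11.5 to 18.9 CPM. The fold change of Ppargc1b was -0.28 ± 0.36 on the log2 scale (SE), with a 95% interval of -1.11 to 0.55 and an adjusted p of 0.821 (edgeR), and it was 0.16 without that library.

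Rxra, the main heterodimer partner in hepatocytes, measured 429, 345 and 473 CPM in Aqp5+/+ and 396, 369 and 283 CPM in Aqp5-/- livers, a log2 fold change of -0.25 with overlap. Rxrb, the ubiquitous partner, measured 24.1, 34.2 and 18.6 CPM in Aqp5+/+ and 20.5, 18.3 and 18.4 CPM in Aqp5-/- livers. Its log2 fold change of -0.42 ± 0.27 (SE) was the largest in size of the RXR genes, with an adjusted p of 0.661 (edgeR). Rxrg, whose second promoter is printed above, measured 3.94, 3.45 and 4.31 CPM in Aqp5+/+ and 3.16, 2.69 and 3.27 CPM in Aqp5-/- livers. Each Aqp5-/- value was under each Aqp5+/+ value, but the nearest pair, 3.45 and 3.27 CPM, was close. The Rxrg log2 fold change of -0.36 ± 0.40 (SE) had an adjusted p of 0.792 (edgeR).

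Among the retinoic acid receptors, Rarb, itself a retinoic acid target, measured 7.71, 6.31 and 3.01 CPM in Aqp5+/+ and 9.17, 4.69 and 8.03 CPM in Aqp5-/- livers. Its libraries overlapped, and the log2 fold change of 0.37 ± 0.45 (SE) had an adjusted p of 0.809 (edgeR). On the annotation, 34.1% of the exon bases of Rarb are shared with Top2b on the opposite strand, and the strand setting of the counting is not given in the sources used here. Rara and Rarg had log2 fold changes of -0.08 and -0.23, and that of Rara turned above 0 in 4 of the alternative settings. Of the thyroid hormone receptors, Thra measured 14.2, 13.7 and 8.55 CPM in Aqp5+/+ and 8.60, 6.52 and 11.8 CPM in Aqp5-/- livers, with overlap. Its log2 fold change was -0.43 ± 0.34 (SE) with an adjusted p of 0.723 (edgeR). Thrb, the main hepatic isoform gene, had a log2 fold change of -0.23, and its lowest library was Aqp5-/- replicate 3 at 51.4 CPM, without which the value was -0.010.

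Nr1d1 (REV-ERBalpha) is a haem-binding repressor of the circadian clock that acts on Arntl and on lipid genes. It measured 134, 135 and 97.0 CPM in Aqp5+/+ replicates 1 to 3 and 69.9, 79.8 and 25.2 CPM in Aqp5-/- replicates 1 to 3. All Aqp5-/- libraries were lower than all Aqp5+/+ libraries, and Aqp5-/- replicate 3 was the lowest of the 6. For Nr1d1 the log2 fold change was -1.07 ± 0.40 (SE), with a 95% interval of -1.98 to -0.15. With edgeR the unadjusted p was 0.0273 and the adjusted one 0.501, which ranged from 0.237 with DESeq2 to 0.808 without Aqp5+/+ replicate 1. Without Aqp5-/- replicate 3 the log2 fold change of Nr1d1 was -0.70. Exons of Nr1d1 and Thra overlap tail to tail on opposite strands of chromosome 11 over 263 bases, which is 8.55% of the exon bases of Nr1d1.

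The other clock receptors overlapped between the genotypes. Nr1d2 (REV-ERBbeta), its close relative, measured 194, 133 and 210.1 CPM in Aqp5+/+ and 226, 234 and 134 CPM in Aqp5-/- livers, a log2 fold change of 0.14 ± 0.30 (SE). Rora, the activator that competes for the same sites, had a log2 fold change of -0.20 ± 0.25 (SE). Both intervals spanned 0. Of 12 tested clock genes beside the receptors, 0 were called by edgeR, and Per1 and Bhlhe40 had an unadjusted p under 0.05. Per1, a clock repressor also induced by glucocorticoids, measured 22.5, 45.5 and 60.3 CPM in Aqp5+/+ and 106.7, 133 and 96.2 CPM in Aqp5-/- livers. Per1 was higher in every Aqp5-/- library, with a log2 fold change of 1.39 ± 0.35 (SE) and an adjusted p of 0.276 with edgeR but 0.0194 with DESeq2. Bhlhe40 had a log2 fold change of 0.92 and Clock one of -0.73, with adjusted p-values of 0.535 and 0.579 (edgeR).

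In 3 clock genes, chosen after their values were seen, Aqp5+/+ replicate 2 stood apart, although its median deviation over the clock list (-0.28) stood beside -0.19 in both Aqp5+/+ replicate 1 and Aqp5-/- replicate 3. Arntl, the clock activator repressed by Nr1d1, measured 25.5 CPM there and 0.695 to 4.76 CPM in the other 5 libraries. The output factor Dbp measured 4.66 CPM there and 31.8 to 125 CPM elsewhere, and Per3 13.7 CPM against 81.2 to 211 CPM. Nr1d1 itself, at 135 CPM, was not low in that library. Times of tissue collection are not given in the sources used here, and the part of this library or of clock phase in the Nr1d1 values was not tested. Without Aqp5+/+ replicate 2 the log2 fold change of Nr1d1 was -0.99.

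**Figure D3:**
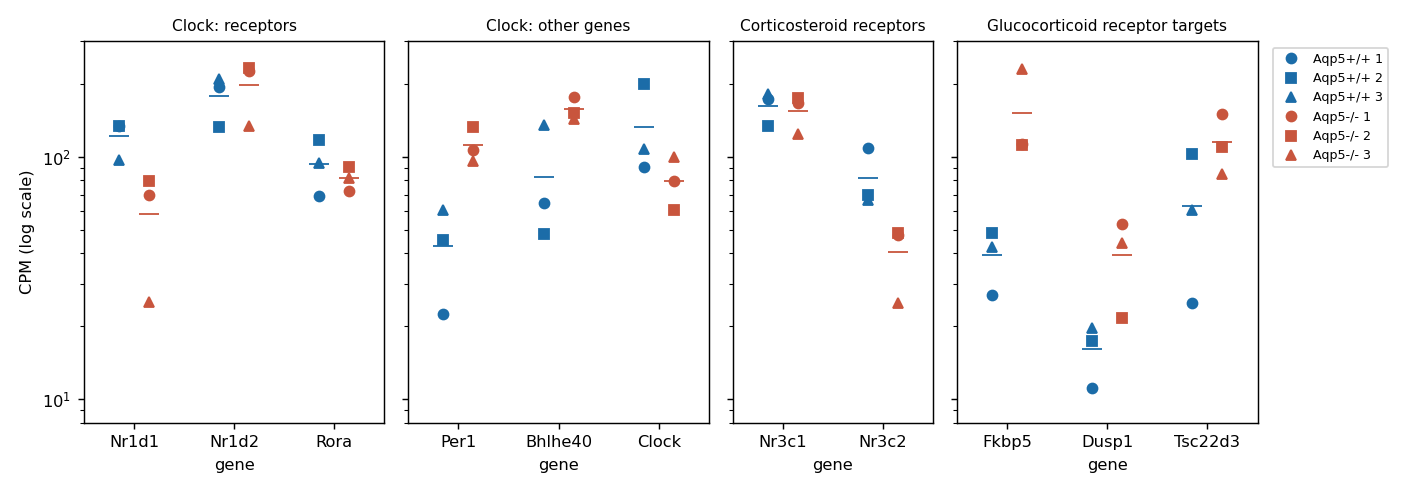
CPM per library (y axis, log scale) for clock receptors, other clock genes, corticosteroid receptors and glucocorticoid receptor targets (genes on the x axis); each symbol is a library, blue for Aqp5+/+ and red for Aqp5-/-, and short bars are means of 3. Nr1d1 and Nr3c2 lie lower and Per1, Bhlhe40, Fkbp5 and Dusp1 higher in all Aqp5-/- libraries, while Nr1d2, Rora, Clock, Nr3c1 and Tsc22d3 overlap.

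Nr3c2 encodes the mineralocorticoid receptor, which binds aldosterone and, where it is not inactivated, corticosterone. It measured 109 CPM in Aqp5+/+ replicate 1, 69.7 in replicate 2 and 66.4 in replicate 3, and 47.6, 48.6 and 24.9 CPM in Aqp5-/- replicates 1 to 3. No Aqp5-/- library reached the lowest Aqp5+/+ library, and Aqp5-/- replicate 3 was again the lowest. For Nr3c2 the log2 fold change was -1.02 ± 0.32 (SE), with a 95% interval of -1.76 to -0.29. Its unadjusted p of 0.0122 was the smallest of the members and its adjusted p was 0.414 (edgeR), and the latter ranged from 0.151 with DESeq2 to 0.793 without Aqp5+/+ replicate 1. Leaving out Aqp5+/+ replicate 1 gave Nr3c2 a log2 fold change of -0.75 and leaving out Aqp5-/- replicate 3 gave -0.77.

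Esr1, the main oestrogen receptor of the liver, was the member with the largest positive value. It measured 70.4, 19.4 and 83.9 CPM in Aqp5+/+ and 114, 159.9 and 84.2 CPM in Aqp5-/- livers. The genotypes were separated only by the gap between 83.9 and 84.2 CPM, and Aqp5+/+ replicate 2 was far below the other libraries. For Esr1 the log2 fold change was 1.04 ± 0.49 (SE), with a 95% interval of -0.08 to 2.16 and an adjusted p of 0.581 (edgeR). It was 0.62 without Aqp5+/+ replicate 2 and 1.40 without Aqp5+/+ replicate 3. The oestrogen-related receptors Esrra and Esrrg, partners of PGC-1 in mitochondrial gene control, had log2 fold changes of 0.32 and -0.28 and overlapped between the genotypes.

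Nr1h4 (FXR), the bile acid sensor, measured 319, 326 and 273 CPM in Aqp5+/+ and 244, 299 and 126 CPM in Aqp5-/- livers. Only Aqp5-/- replicates 1 and 3 lay below the Aqp5+/+ range, and the log2 fold change of -0.46 ± 0.33 (SE) became -0.17 without replicate 3. Nr0b2 (SHP), the repressor that FXR induces to shut off bile acid synthesis, measured 9.81, 19.8 and 18.4 CPM in Aqp5+/+ and 23.0, 16.7 and 32.0 CPM in Aqp5-/- livers. Its genotypes overlapped through Aqp5-/- replicate 2. The Nr0b2 log2 fold change was 0.58 ± 0.35 (SE), with a 95% interval of -0.22 to 1.38 and an adjusted p of 0.642 (edgeR). The oxysterol receptors Nr1h3 (LXRalpha) and Nr1h2 (LXRbeta) varied little, from 67.0 to 86.2 CPM over the 6 libraries for Nr1h3, the narrowest range of the members in fold, and from 18.5 to 25.6 CPM for Nr1h2. Their log2 fold changes were 0.04 ± 0.20 and -0.01 ± 0.23 (SE), with 95% intervals of -0.42 to 0.51 and -0.54 to 0.52.

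Nr1i3 (CAR), the receptor that induces drug-metabolizing enzymes, measured 455, 811 and 457 CPM in Aqp5+/+ and 445, 715 and 257 CPM in Aqp5-/- livers. Aqp5-/- replicate 3 was the lowest library and Aqp5+/+ replicate 2 the highest, and the log2 fold change of -0.28 ± 0.42 (SE) had an adjusted p of 0.841 (edgeR). It was 0.014 without Aqp5-/- replicate 3 and 0.048 without Aqp5+/+ replicate 2. On the annotation, 74.9% of the exon bases of Nr1i3 are shared with Tomm40l on the opposite strand, so its counts are uncertain without knowledge of the strand setting. Nr1i2 (PXR), the companion xenobiotic sensor, ran from 60.2 to 172 CPM in Aqp5+/+ and from 113 to 147 CPM in Aqp5-/- livers, with a log2 fold change of 0.24.

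Hnf4a, which maintains hepatocyte identity, measured 501, 527 and 703 CPM in Aqp5+/+ and 776, 776 and 597 CPM in Aqp5-/- livers. Its log2 fold change was 0.31 ± 0.28 (SE) with an adjusted p of 0.753 (edgeR), and the genotypes overlapped through Aqp5-/- replicate 3. Nr2c1 (TR2), an orphan receptor that represses transcription with its partner Nr2c2, measured 42.5, 57.2 and 42.5 CPM in Aqp5+/+ and 37.8, 38.7 and 24.9 CPM in Aqp5-/- livers. All Aqp5-/- values were lower, with a gap from 42.5 to 38.7 CPM. For Nr2c1 the log2 fold change was -0.49 ± 0.25 (SE), with a 95% interval of -1.06 to 0.08 and an adjusted p of 0.598 (edgeR). Nr2c2 (TR4) had a value of 0.21 on the same scale, and shares 30.7% of its exon bases with Mrps25 on the opposite strand. The COUP-TF genes Nr2f1, Nr2f2 and Nr2f6 had log2 fold changes of -0.08, -0.32 and -0.20. Nr2f1 was the least certain of the tested members, with 0.244 to 2.55 CPM over the 6 libraries and a 95% interval of -2.18 to 2.02, and 54.4% of the exon bases of Nr2f6 are shared with Ocel1 on the opposite strand.

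Nr5a2 (LRH-1), a regulator of bile acid and cholesterol genes that SHP represses, measured 124, 154 and 142 CPM in Aqp5+/+ and 116, 119.7 and 95.05 CPM in Aqp5-/- livers. Every Aqp5-/- library lay below the lowest Aqp5+/+ library, and the difference was small. The log2 fold change of Nr5a2 was -0.34 ± 0.21 (SE), with a 95% interval of -0.83 to 0.15 and an adjusted p of 0.654 (edgeR). Nr6a1, a germ cell factor expressed at a low level in the liver, measured 33.4, 45.7 and 23.8 CPM in Aqp5+/+ and 20.04, 31.7 and 20.3 CPM in Aqp5-/- livers. It overlapped through Aqp5-/- replicate 2, with a log2 fold change of -0.51 ± 0.31 (SE) and an adjusted p of 0.642 (edgeR).

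Nr4a1, an immediate early gene that needs no ligand, measured 2.51, 3.15 and 1.30 CPM in Aqp5+/+ and 3.98, 1.74 and 6.43 CPM in Aqp5-/- livers. Aqp5-/- replicate 3 was the highest library, as it was for the summed immediate early genes (213 CPM against 48.5 to 87.0 CPM in the other 5 libraries). The Nr4a1 log2 fold change of 0.82 ± 0.60 (SE) had an adjusted p of 0.705 (edgeR), and without that library it was 0.31. Nr4a2 had 1, 10 and 0 counts in Aqp5+/+ and 6, 0 and 5 counts in Aqp5-/- libraries. Vdr, the vitamin D receptor, which in the liver is known mainly from non-parenchymal cells, had 0 counts in each Aqp5+/+ library and 4, 1 and 10 counts in the Aqp5-/- libraries. Neither gene was tested, and no fold was computed.

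The 6 libraries did not take equal shares of the extremes. Aqp5-/- replicate 3 held the lowest of the 6 values for 13 of 35 members, where 23.7% of all genes had their lowest value in that library. These 13 were Ppara, Rxra, Thrb, Nr1d1, Nr1h2, Nr1h4, Nr1i3, Nr2c1, Nr2f6, Nr3c1, Nr3c2, Nr5a2 and Ppargc1b. Aqp5+/+ replicate 2, the shallowest library, held the highest value for 14 of 35 members, where 27.9% of all genes had their highest value there. The markers of other cells that were raised in Aqp5-/- replicate 3 are given above, and their part in these low values was not tested.

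**Figure D4:**
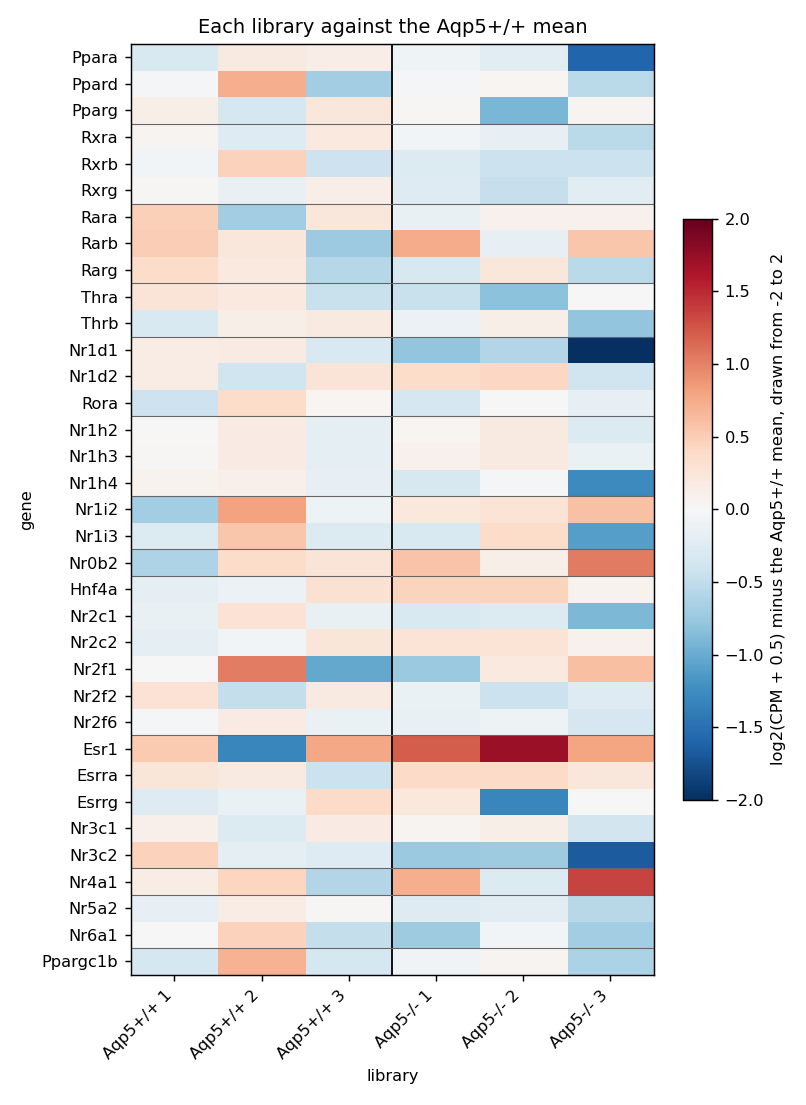
Log2(CPM + 0.5) of each tested member minus its Aqp5+/+ mean (colour, drawn from -2 to 2), with libraries on the x axis and genes on the y axis grouped by receptor subfamily; the vertical line separates Aqp5+/+ from Aqp5-/-. The deepest blue cells stand in Aqp5-/- replicate 3, for Nr1d1 (25.2 CPM, past the end of the scale), Nr3c2 (24.9 CPM) and Ppara (123 CPM).

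Target genes of these receptors were read from lists, together with other receptors, coactivators and corepressors, clock genes and immediate early genes. These were 13 lists of 157 further genes, 139 of them tested. edgeR called 0 of the 139 and limma called 0, while DESeq2 called 4, namely Fkbp5, Cyp26a1, Slco1a4 and Per1. At an unadjusted p under 0.05 with edgeR stood 12 of the 139 genes higher and 4 lower in Aqp5-/- livers, against 4.30% and 4.48% of all genes, and the 4 DESeq2 calls stand against 1.77% of all genes. Among the 12 higher genes, Pprc1, Per1, Bhlhe40, Jun and Atf3 came from lists that do not hold receptor targets. The same holds for Per1 among the DESeq2 calls.

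The glucocorticoid receptor targets had the highest median among the receptor target lists. Nr3c1, the receptor itself, ran from 134 to 182 CPM in Aqp5+/+ and from 125 to 174 CPM in Aqp5-/- livers, a log2 fold change of -0.07 ± 0.24 (SE) that turned to 0.085 when libraries were scaled by their totals alone. Of its 12 tested targets, 10 had a log2 fold change above 0, with a median of 0.69, and the same 10 were above 0 without Aqp5-/- replicate 3, with a median of 0.44. Fkbp5, a chaperone of the receptor and a sensitive target, measured 26.9, 48.5 and 42.4 CPM in Aqp5+/+ and 113, 112 and 229.7 CPM in Aqp5-/- livers. Every Aqp5-/- library exceeded every Aqp5+/+ library by a wide gap. The Fkbp5 log2 fold change was 1.95 ± 0.36 (SE), with an adjusted p of 0.121 with edgeR and 7.2e-05 with DESeq2. Dusp1, a stress phosphatase, had a log2 fold change of 1.30 without overlap, and Tsc22d3 (GILZ) one of 0.88 with overlap, with adjusted p-values of 0.343 and 0.605 (edgeR). The Tsc22d3 value was 0.50 without Aqp5+/+ replicate 1. Aqp5+/+ replicate 1 was the lowest library for Fkbp5, Dusp1 and Tsc22d3, and its summed targets reached 1915 CPM against 6945 to 8999 CPM in the other 5 libraries. Summed targets of Aqp5+/+ replicates 2 and 3, at 8999 and 7075 CPM, overlapped those of Aqp5-/- livers, at 6945 to 8396 CPM. The median deviation over the list was -1.06, 0.34 and 0.24 in Aqp5+/+ and 1.10, 0.54 and 1.28 in Aqp5-/- replicates 1 to 3. The list median without Aqp5+/+ replicate 1 is not given here.

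The PPARalpha targets, genes of fatty acid oxidation and transport, were divided in sign. Of 22 tested, 14 had a log2 fold change below 0, with a median of -0.07, and within this list Cyp4a14 alone had an unadjusted p under 0.05. The list holds Cpt1a and Cpt2, which the paper reports as lower in Aqp5-/- livers by quantitative PCR. Neither had an unadjusted p under 0.05 here (edgeR). The list leaves out Acsl1, Cyp4a12a and Cyp4a12b, PPAR targets that the paper reports as lower in Aqp5-/- livers. Cyp4a12a and Cyp4a12b stand in the male-biased list, where 14 of 14 genes lay lower at an unadjusted p under 0.05 (edgeR). Cyp4a14, a fatty acid omega-hydroxylase, measured 60.5, 231 and 64.1 CPM in Aqp5+/+ and 463, 184 and 539 CPM in Aqp5-/- livers, overlapping through 1 library of each genotype. Its log2 fold change was 1.74 ± 0.60 (SE) and its adjusted p 0.467 (edgeR). Vnn1 had a log2 fold change of 0.67. The 2 targets of the PPARalpha list without overlap were both lower in Aqp5-/- livers. Of these, Acaa1b, a peroxisomal thiolase named after its values were seen, measured 232, 630.0 and 213 CPM in Aqp5+/+ and 190.0, 209 and 35.2 CPM in Aqp5-/- livers. Its difference was -1.31 on the log2 scale, at an adjusted p of 0.593 (edgeR).

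The xenobiotic targets of Nr1i2 and Nr1i3 were divided, with 6 of 12 above and 6 below 0. Slco1a4, a sinusoidal uptake transporter, measured 80.1, 95.4 and 74.1 CPM in Aqp5+/+ and 153, 159 and 221 CPM in Aqp5-/- livers. The separation was complete, with a log2 fold change of 1.10 ± 0.24 (SE) and an adjusted p of 0.205 with edgeR and 0.0077 with DESeq2. Cyp2b10, the classical CAR target, had a log2 fold change of 2.31, whereas Cyp2c55 had one of -2.23 and Ces2a one of -1.03, with adjusted p-values of 0.482, 0.488 and 0.520 (edgeR). The Cyp2b10 value was 1.10 without Aqp5-/- replicate 2. Without Aqp5-/- replicate 3 the median of these 12 targets moved from 0.06 to -0.41.

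Among 5 tested retinoic acid targets, Cyp26a1, which degrades retinoic acid, measured 3.77, 2.40 and 6.35 CPM in Aqp5+/+ and 12.98, 13.5 and 16.2 CPM in Aqp5-/- livers. No Aqp5+/+ library came near the Aqp5-/- range, and the log2 fold change was 1.75 ± 0.39 (SE) with an adjusted p of 0.210 with edgeR and 0.0070 with DESeq2. Dhrs3, which reduces retinaldehyde, had a log2 fold change of -0.78 with an adjusted p of 0.530 (edgeR), so that both directions were present, and the list median was 0.13.

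The HNF4alpha targets had log2 fold changes below 0 in 12 of 12 genes, from -1.32 to -0.03 with a median of -0.20, beside a value of 0.31 for Hnf4a and a median of -0.31 over the hepatocyte markers, whose part in it was not tested, and none had an unadjusted p under 0.05. Without Aqp5-/- replicate 3, 8 of the 12 were below 0, with a median of -0.09. The FXR and SHP targets had 9 of 10 below 0 with a median of -0.34, and Osgin1, a gene induced by oxidative stress, stood at -0.97 with an adjusted p of 0.467 (edgeR). The bile acid exporter subunit Slc51b was the 1 gene above 0, at 2.68, and the bile acid synthesis enzyme Cyp8b1 stood at -2.73, with adjusted p-values of 0.574 and 0.591 (edgeR) and overlap for both. The LXR targets had a median of 0.11 over 11 genes, led by the sterol exporter Abcg1 at 0.74 with an adjusted p of 0.524 (edgeR). The thyroid hormone targets had a median of 0.15 over 6 genes. The ERR and PGC-1 targets of mitochondrial energy metabolism had 10 of 12 above 0 with a median of 0.33, which was 0.19 without Aqp5-/- replicate 3, and none with an unadjusted p under 0.05. Coactivators and corepressors had a median of -0.09 over 17 genes. Of these, the PGC-1-related coactivator Pprc1 measured 32.5, 25.1 and 30.0 CPM in Aqp5+/+ and 44.7, 48.6 and 39.9 CPM in Aqp5-/- livers, without overlap, with a log2 fold change of 0.60 ± 0.21 (SE) and an adjusted p of 0.467 (edgeR). Of the receptors outside the group, 3 were tested and none had an unadjusted p under 0.05, and among them Hnf4g, a relative of Hnf4a, had a log2 fold change of -1.06 with overlap and an adjusted p of 0.710 (edgeR). The immediate early genes had a median of 1.02 over 6 genes with Aqp5-/- replicate 3 and 0.46 without it, and the 12 clock genes a median of 0.06 with it and 0.31 without it.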

How the data were processed

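The raw counts are those the authors deposited, obtained with HTSeq according to the methods. The submitters' processing notes list cutadapt 1.9.3, HISAT2 2.0.4 and the build mm10. The deposited table also holds log2 values normalized by the authors with edgeR, used only as an alternative. Per the labels the libraries were made with a GenSeq kit, while the methods name a stranded TruSeq kit, and the strand setting of the counting is not given in the sources used here. No sample column was left out (0 of them). The 6 libraries hold 7130831 to 15550006 counts, and low counts limit the precision of low genes. Positions and exon lengths came from GENCODE vM21 on GRCm38 and promoters from RefSeq on GRCm38.p6.

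Genes were kept by filterByExpr (minimum count 10, minimum total count 15), scaled by TMM and compared between genotypes with edgeR 4.0.16 in R 4.3.3 by the robust quasi-likelihood test, 2-sided, without covariates, with Benjamini-Hochberg adjustment over all genes and calls at an adjusted p under 0.05. The test was checked on simulated data. Alternatives were RLE size factors, library totals alone, DESeq2 1.42.0, limma 3.58.1 on log2 CPM (prior count 2) and on the deposited log2 values, no filter, a mean of at least 1 CPM, a replicate block, and leaving out each library. CPM per kilobase is the TMM-scaled CPM divided by the union exon length.

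The members and lists were chosen with earlier results of these data known. Values per library are given for the PPAR and PGC-1 genes, for members with an unadjusted p under 0.05 or without overlap, and for the member of each subfamily with the largest absolute log2 fold change. From other lists up to 3 genes with the smallest unadjusted p are named, and any further gene was chosen after its values were seen. Ppargc1a was not analysed here. Some genes that this rule names are not reported here.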

Additional observations from a re-analysis of the deposited data

How the results depend on the processing

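No member was called under any of the 14 alternatives run, and 463 of 490 alternative values of the 35 members kept their sign. Members with an unadjusted p under 0.05 numbered 2, and 0 to 5 when each library was left out in turn (0 without Aqp5+/+ replicate 1, 5 without Aqp5+/+ replicate 3). Members without overlap numbered 6, and 6 to 13 when a library was left out, where fewer libraries separate more easily. With all 6 libraries these 2 measures held for 8.78% and 14.7% of all genes. Without Aqp5-/- replicate 3 the share at an unadjusted p under 0.05 was 5.81% (edgeR). Other shares with a library left out are not given here, so those counts cannot be set against a background. Genes called over the whole table numbered 41, with 236 by DESeq2 and 4 to 45 when a library was left out (4 without Aqp5+/+ replicate 1 or Aqp5-/- replicate 2). DESeq2 called 4 genes of the other lists against 0 by edgeR, and the cause was not tested. The median of the members was -0.23, -0.084 with library totals alone, and -0.25 to -0.12 when a library was left out.

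Signs turned for the following values, and the cause was not tested. With library totals alone, the median of all genes was 0.17, against 0.01 with TMM. In that setting, log2 fold changes were 0.075 for Rara, 0.14 for Nr1h2, 0.072 for Nr2f1, 0.085 for Nr3c1 and 0.023 for Klf9, a thyroid hormone target. With limma on log2 CPM they were 0.0095 for Rara and 0.079 for Nr2f1, and with limma on the deposited log2 values 0.052 for Rara, 0.022 for Nr1h2 and 0.12 for Nr2f1. When each library was left out in turn, the range of the log2 fold change was -0.57 to 0.17 for Ppard, -0.42 to 0.0040 for Pparg, -0.35 to 0.17 for Rara, -0.035 to 0.36 for Nr1d2, -0.12 to 0.11 for Nr1h2 and -0.044 to 0.13 for Nr1h3. It was -0.055 to 0.74 for Nr1i2, -0.72 to 0.048 for Nr1i3, -0.61 to 0.86 for Nr2f1, -0.60 to 0.074 for Esrrg, -0.19 to 0.065 for Nr3c1, -0.46 to 0.16 for Ppargc1b and -0.0031 to 1.05 for Tgm2, a retinoic acid target.

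Whether the replicate numbers pair the libraries was not settled. Deviations of same-numbered libraries correlated at -0.063, 0.23 and 0.15, and those of the other pairs at -0.24 to 0.086. Aqp5+/+ replicates 2 and 3 correlated best with the same-numbered Aqp5-/- library, and Aqp5+/+ replicate 1 with Aqp5-/- replicate 3 (0.086). These values cannot decide it, since deviations from a mean of 3 libraries depend on each other. With the replicate number as a block, 4 members had an unadjusted p under 0.05 (edgeR), namely Nr1d1, Nr2c1, Nr3c2 and Nr6a1, and 0 were called. The share of all genes at that p with the block is not given here. The log2 fold change of Nr2f1 with the block was 0.0023. With 3 libraries per genotype, the 95% interval of 33 of 35 members spanned 0.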
